A study of Mus musculus with 8 samples.

Results

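The genes described here are 10 genes that mark the stem cells of the intestinal crypt or that Wnt signalling switches on there: Lgr5, Ascl2, Smoc2, Bmi1, Axin2, Ephb2, Ephb3, Sox9, Cd44 and Myc. They were found by their symbols in the platform's annotation. A probe was annotated to 9 of the 10, and these 9 were measured well enough to be tested, among 17220 named genes tested of 19087 named on the array. Ephb2 was not analysed here because no probe carried its symbol. All arrays measured colon RNA of male mdr1a-/- mice. These mice lack a drug efflux pump and are used as a model of inflammatory bowel disease.

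The colon epithelium is renewed by stem cells at the base of the crypts. Wnt proteins from neighbouring cells bind Frizzled and Lrp receptors, which spares β-catenin from destruction and lets it act with TCF/LEF factors on target genes; R-spondins acting through the Lgr receptors strengthen the signal. Targets include regulators of the stem cell state, receptors that keep dividing cells low in the crypt, genes for growth, and inhibitors that feed back on the pathway.

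There were 4 mdr1a-/- mice on the AIN-76A diet with 0.2% curcumin, a polyphenol of turmeric, and 4 mdr1a-/- mice on AIN-76A alone, here called control mice. Each mouse had its own Agilent array of 2 colours, with the mouse in Cy3 and reference RNA in Cy5, and the values are log2 ratios between the channels. The labels give an age of 7 weeks for every mouse, while the design text has that age as the start of a longer period on the diets. The strain label, Swiss mouse, stands only on the control arrays, and the curcumin arrays write the genotype as MDR1A-/-. The design text adds that the curcumin mice on the arrays had low and the control mice high scores for tissue injury under the microscope, so diet and score cannot be told apart. A diet with rutin is named there too and is on no array analysed here.

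The labels do not say which channel is the numerator, and their account of the reference (wild-type colon on the matching diet) differs from that of the design text (1 RNA for all arrays). Differences between the diets are read here with 1 reference for all arrays. If each diet had its own reference, every difference would also hold that between the references. The mean log ratio of 5 liver genes lay between -2.96 and -2.74 on curcumin arrays and between -3.10 and -2.69 on control arrays, and that of 6 kidney genes between -2.56 and -2.44 on curcumin arrays and between -2.49 and -2.03 on control arrays. The values are read as mouse over reference, on the assumption that the reference held more liver and kidney RNA than the mouse colon. Against wild-type colon, as the labels have it, these genes would not give the direction. The reading is likely but not stated, and with the channels reversed each sign given here would be opposite. A log ratio gives no level, so no marker can be called absent and the tissue label could not be checked on that basis. Abcb1a, the gene disrupted in all 8 mice, had -0.19 ± 0.18 in curcumin mice and -0.55 ± 0.10 in control mice (SD, n = 4 each; limma adjusted p = 0.081); because both groups carry the deletion, this does not check the labels. Over all 24030 measurements limma called 1137 at an adjusted p under 0.05, or 4.73%, with 504 higher (2.1%) and 633 lower (2.63%) in curcumin mice. After quantile normalization between arrays the split was 619 higher and 489 lower. The median difference of all measurements was -0.02, and 4 mice per diet limit what size of difference could be called.

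The 9 measured genes did not move as a block. Cd44 was lower in curcumin mice, and 0 genes were called higher. At an unadjusted p under 0.05, which 18.4% of all measurements reached, there were 2 members, Cd44 and Myc, both lower. Of the 9 differences 6 were below 0 and 3 above, with a median of -0.09 against -0.02 over all measurements. Against the background of 2.63% of measurements called lower, 1 call among 9 genes is too few to say anything of the list. The groups did not overlap for 1 of the 9 genes, Cd44, where 12.6% of all measurements showed no overlap. The members and the lists of related genes were chosen with earlier results of these data known, so their counts are descriptions.

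**Figure D1:**
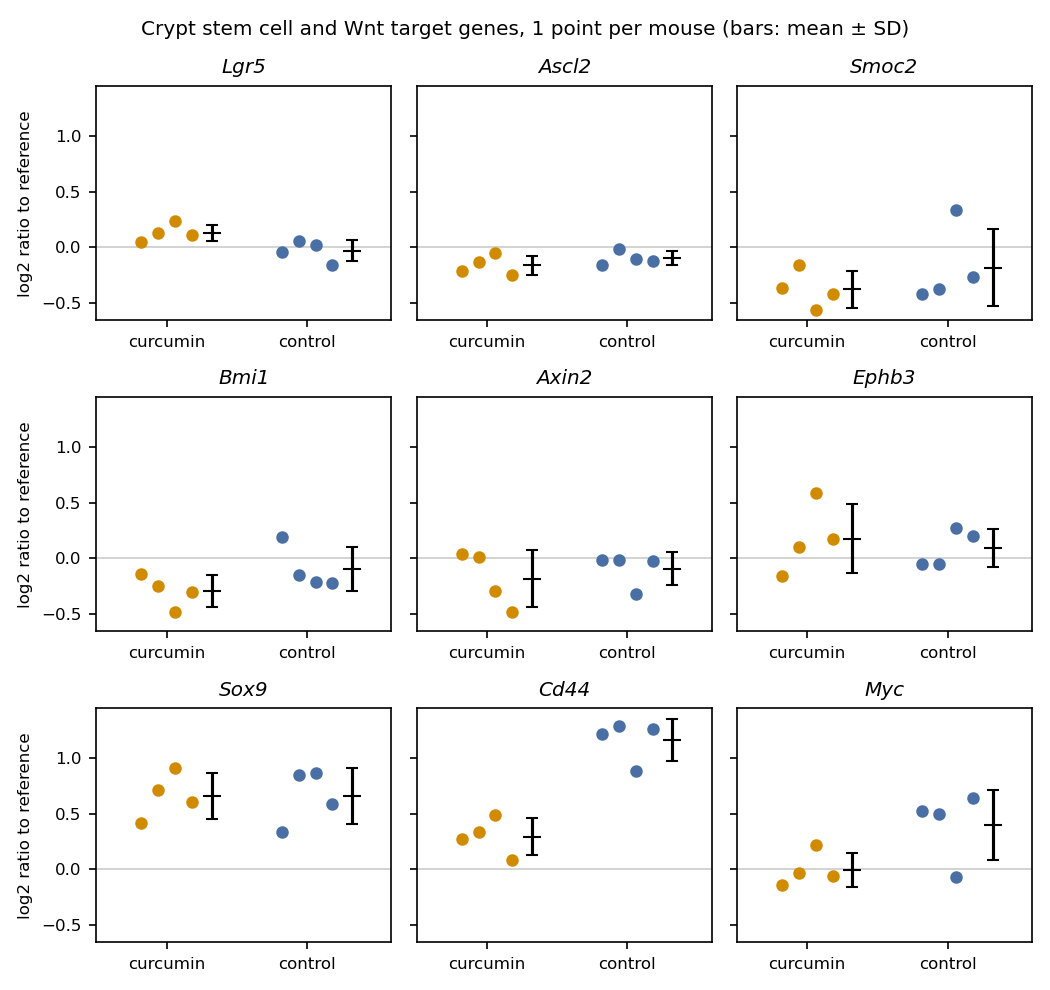
Log2 ratio to the reference (vertical axis) of the 9 measured genes in each mouse, curcumin left and control right, with 1 point per mouse and a bar for the group mean. Only Cd44 separates the groups, at 0.080 to 0.492 in curcumin mice and 0.885 to 1.29 in control mice.

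The promoters of 2 genes are shown before the values, because Cd44 is the gene whose values separated the diets and Axin2 is the target most often used to read Wnt activity. They are the RefSeq windows of GRCm38.p6 from 250 bases before to 50 bases after the annotated start, read 5′ to 3′ on the gene's own strand: chr2:102901616-102901915 on the minus strand for Cd44 and chr11:108920099-108920398 on the plus strand for Axin2. Capitals mark a match to CTTTG, the core letters of TCF/LEF motifs, on either strand.
Cd44: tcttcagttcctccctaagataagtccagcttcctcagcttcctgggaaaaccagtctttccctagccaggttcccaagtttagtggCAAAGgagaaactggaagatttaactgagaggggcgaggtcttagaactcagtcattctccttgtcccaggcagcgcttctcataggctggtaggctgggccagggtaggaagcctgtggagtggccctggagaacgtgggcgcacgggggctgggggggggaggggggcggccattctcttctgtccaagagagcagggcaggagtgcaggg
Axin2: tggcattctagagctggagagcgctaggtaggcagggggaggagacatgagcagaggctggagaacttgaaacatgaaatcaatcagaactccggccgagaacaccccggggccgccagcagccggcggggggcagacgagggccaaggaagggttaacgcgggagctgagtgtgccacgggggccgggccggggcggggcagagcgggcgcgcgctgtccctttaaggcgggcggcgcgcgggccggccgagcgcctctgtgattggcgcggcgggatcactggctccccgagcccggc

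The Cd44 window holds CAAAG, the reverse complement of CTTTG, with its first base 163 bases before the start, and the Axin2 window holds no match. Of 32851 promoter windows of this length 53.93% hold CTTTG on either strand, and so does 1 of the 6 windows available for these genes, that of Cd44. The longer CTTTGA, which contains CTTTG, is in 16.0% of all windows and in 0 of the 6. These are matches of letters in a short window, and nothing about binding follows from them. No window was available for Lgr5, Smoc2, Sox9 or Myc.

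The stem cell markers come first. Lgr5 encodes the R-spondin receptor that marks the cycling stem cells of the crypt base. Its log ratio was 0.050, 0.125, 0.232 and 0.107 in curcumin mice 1 to 4, against -0.043, 0.057, 0.017 and -0.158 in control mice 1 to 4. The lowest curcumin mouse lay below the highest control mouse, so the groups overlapped slightly, and 3 of the 4 curcumin mice lay above every control mouse. The difference was 0.16 (SE 0.08, 95% interval -0.01 to 0.33) and did not pass the test (limma adjusted p = 0.319, unadjusted p = 0.0679). It rests on 1 of the 2 Lgr5 probes, since the other had a value in only 1 curcumin mouse. Lgr5 thus stood slightly to the positive side in curcumin mice, within an interval that includes 0.

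Ascl2 encodes a basic helix-loop-helix factor that maintains the stem cell state. It measured -0.212, -0.135, -0.054 and -0.246 in curcumin mice, against -0.156, -0.012, -0.103 and -0.128 in control mice. The groups overlapped in part, with a difference of -0.06 (95% interval -0.23 to 0.10, limma adjusted p = 0.73). This interval is among the narrower ones. Like the interval of every other member tested except Cd44, it does not reach the difference of Cd44. It covers the spread of the log ratios only, since whether a weak probe stood above background was not examined. The value of curcumin mouse 2 rests on 1 of the 2 Ascl2 probes.

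Smoc2 encodes a secreted calcium-binding matrix protein found in crypt base stem cells. Its values were -0.372, -0.160, -0.563 and -0.423 in curcumin mice, against -0.425, -0.373, 0.333 and -0.267 in control mice. Control mouse 3 was the only mouse above 0 and widened the control spread to 0.35 (SD), beside 0.17 in curcumin mice. The difference of -0.20 (95% interval -0.58 to 0.18) did not pass the test (adjusted p = 0.614). Both probes of Smoc2 pointed the same way, at -0.16 and -0.23. Control mouse 3 was the highest mouse at each probe, and without that mouse the gene-level difference was -0.025.

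Bmi1, a subunit of Polycomb repressive complex 1, has been used to mark slowly cycling cells above the crypt base. It had -0.141, -0.253, -0.484 and -0.306 in curcumin mice, against 0.195, -0.147, -0.216 and -0.226 in control mice. The groups overlapped, since curcumin mouse 1 lay above all control mice but mouse 1. The other curcumin mice lay below every control mouse, and control mouse 1 was the only mouse above 0. The difference was -0.20 (95% interval -0.46 to 0.06, adjusted p = 0.424), with -0.06 at one probe and -0.33 at the other.

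Axin2 encodes a scaffold of the complex that destroys β-catenin, and is switched on by Wnt signalling as feedback. It measured 0.037, 0.015, -0.298 and -0.486 in curcumin mice, against -0.018, -0.017, -0.318 and -0.024 in control mice. Within each diet the mice split, since curcumin mice 3 and 4 and control mouse 3 were low and the others near 0. The difference was -0.09 (95% interval -0.39 to 0.21, adjusted p = 0.792). Curcumin mice 3 and 4 are those whose slides lie in another number range than the other 6, and among those 6 arrays the difference was 0.12, so the direction for Axin2 is not settled.

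Ephb3 encodes a receptor tyrosine kinase that, by repulsion from ephrin-B ligands, keeps dividing cells low in the crypt. It had -0.160, 0.104, 0.586 and 0.175 in curcumin mice, against -0.051, -0.056, 0.271 and 0.203 in control mice. Curcumin mice 1 and 3 were the lowest and the highest of all 8. The difference of 0.08 (95% interval -0.26 to 0.43, adjusted p = 0.834) became -0.12 within the 6 arrays of the shared slide range.

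Sox9 encodes an HMG-box transcription factor of crypt progenitors. Its values were 0.417, 0.715, 0.909 and 0.602 in curcumin mice, against 0.337, 0.850, 0.865 and 0.587 in control mice. The means were 0.66 ± 0.21 in curcumin mice and 0.66 ± 0.25 in control mice (SD, n = 4 each), and the difference was 0.0012 (95% interval -0.32 to 0.33, adjusted p = 0.998). The 4 probes lay on both sides of 0, at 0.18, -0.06, -0.10 and -0.12, and none passed the test.

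Cd44 encodes the receptor for hyaluronan and is a Wnt target in crypt cells that leukocytes and fibroblasts also carry. Its log ratio was 0.269, 0.338, 0.492 and 0.080 in curcumin mice, against 1.22, 1.29, 0.885 and 1.27 in control mice. Every curcumin mouse lay below every control mouse. Cd44 averaged 0.29 ± 0.17 in curcumin mice and 1.17 ± 0.19 in control mice (SD, n = 4 each), a difference of -0.87 (SE 0.12, 95% interval -1.14 to -0.60), or 1.83-fold lower in curcumin mice (limma adjusted p = 0.00585). In whole tissue, fewer cells of a type and less RNA per cell cannot be told apart. The call held without any single array, with differences from -0.97 to -0.80. Within the 6 arrays of the shared slide range the difference was -0.86 (SE 0.14) and just missed the threshold (adjusted p = 0.0517).

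The 3 Cd44 probes disagreed in size. One measured 0.657, 0.759, 0.811 and 0.043 in curcumin mice, against 1.84, 1.97, 1.64 and 2.09 in control mice, a difference of -1.32 (SE 0.18, adjusted p = 0.00474). Another measured 0.084, 0.024, 0.488 and -0.196 in curcumin mice, against 1.65, 1.08, 0.945 and 1.66 in control mice, a difference of -1.23 (SE 0.20, adjusted p = 0.0113). Neither of these overlapped between the diets. The remaining probe measured 0.067, 0.233, 0.176 and 0.392 in curcumin mice, against 0.175, 0.835, 0.068 and 0.045 in control mice, and did not pass the test (-0.06, SE 0.17, 95% interval -0.45 to 0.32, adjusted p = 0.895). Which transcripts each probe reads was not examined, and the gene-level difference averages all 3. Of the 20 probes of the 9 genes 19 were tested, and the 2 that passed, both lower, were these of Cd44; of all 33957 features tested 4.35% passed and 2.38% were lower.

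**Figure D2:**
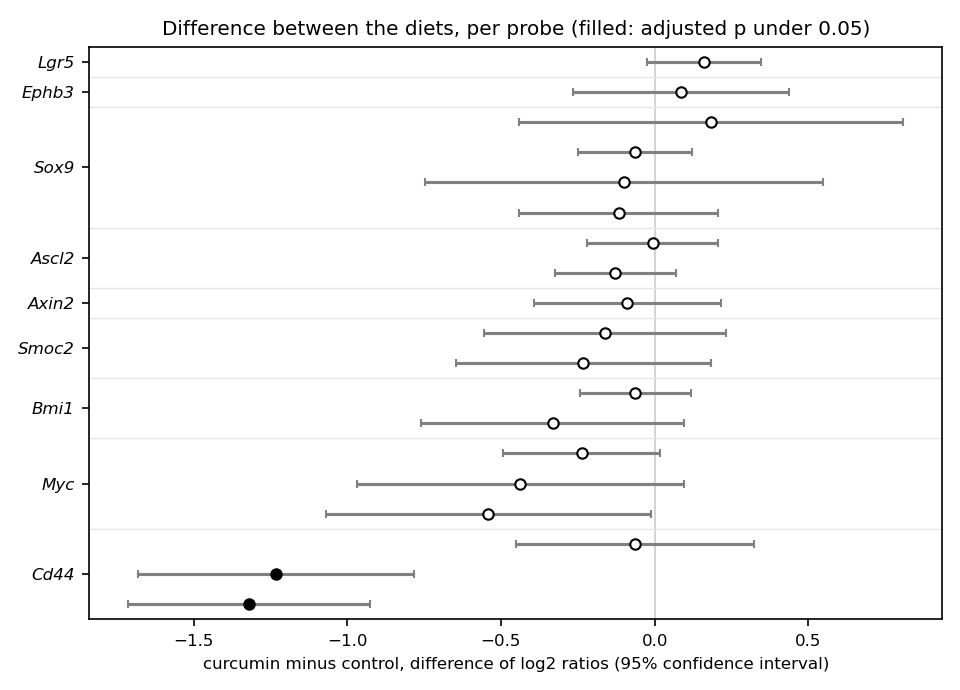
Curcumin minus control difference in log2 ratio (horizontal axis) of each tested probe, grouped by gene, with 95% confidence intervals; filled points have an adjusted p under 0.05. The pair of filled Cd44 probes at -1.32 and -1.23 stands apart from the remaining Cd44 probe at -0.06 and from the probes of the other genes.

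Myc encodes the transcription factor that drives growth and division below Wnt and many other signals. It measured -0.138, -0.031, 0.214 and -0.065 in curcumin mice, against 0.528, 0.5, -0.066 and 0.639 in control mice. All control mice except mouse 3 lay above every curcumin mouse, and control mouse 3 lay among the curcumin values. The difference of -0.40 (SE 0.15, 95% interval -0.75 to -0.06) had an unadjusted p of 0.0274 and did not pass after adjustment (limma adjusted p = 0.194). Without control mouse 3 it was -0.56 and passed (adjusted p = 0.0179), and that array was left in because no label sets it apart. The 3 Myc probes had differences of -0.54, -0.44 and -0.24, of which none passed the test.

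**Figure D3:**
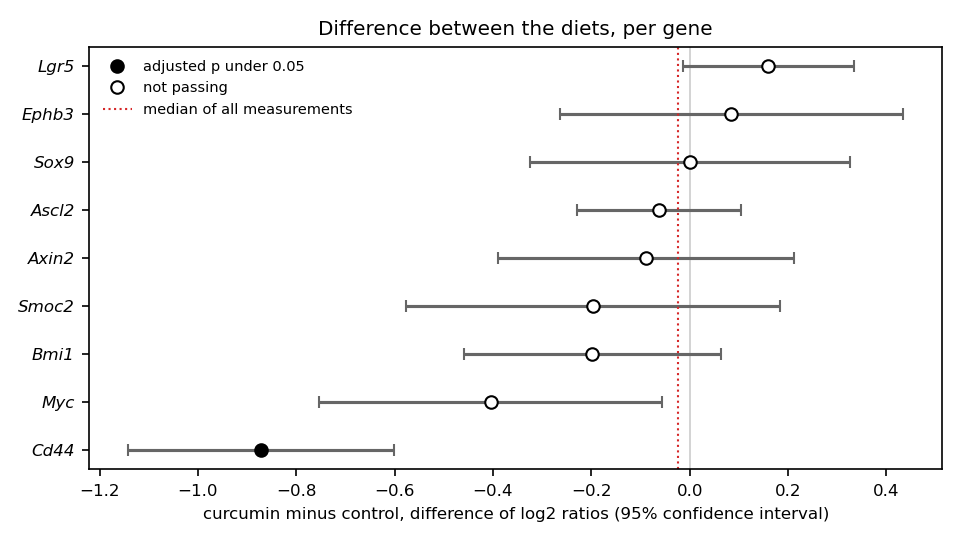
Curcumin minus control difference in log2 ratio (horizontal axis) of each measured gene with its 95% confidence interval; the filled point has an adjusted p under 0.05. Cd44 at -0.87 is filled, Myc at -0.40 has an interval that ends just below 0, and the intervals of the other 7 genes include 0.

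Cd44 is carried by cells other than crypt cells, and some markers of such cells were also lower in curcumin mice. Whether they followed Cd44 from mouse to mouse within a diet was not tested. Over all measurements 2.63% were called lower and 2.1% higher. The calls of marker genes come from the fit to all 8 arrays. How they depend on single arrays or the slide range is not given. Of 6 macrophage genes tested 4 were lower in curcumin mice, with array means of 0.13 to 0.57 in curcumin mice and 1.01 to 1.59 in control mice. Of 5 neutrophil genes 2 were lower, with array means of -0.64 to 0.39 in curcumin mice and 1.24 to 1.58 in control mice. Of 6 fibroblast genes 3 were lower, at -1.05 to -0.74 in curcumin mice and -0.42 to 0.24 in control mice. Like Cd44, the array means of these 3 lists did not overlap between the diets, where 12.6% of all single measurements showed no overlap.

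The T cell list, with 1 of 5 lower, overlapped slightly, at 0.08 to 0.28 in curcumin mice and 0.22 to 0.93 in control mice. Endothelial genes, with 2 of 6 lower, had array means of -0.70 to -0.64 in curcumin mice and -0.52 to -0.21 in control mice, again without overlap. Genes of dividing cells, with 2 of 11 lower, ran from -0.94 to -0.46 in curcumin mice and from -0.57 to 0.09 in control mice. Of 6 smooth muscle genes and 6 general epithelial genes limma called 0 (0 and 2 at an unadjusted p under 0.05).

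On each array a single log ratio was shared by 191 to 397 features, and 5 of the 6 epithelial genes held it on at least 1 array (Krt8, Krt19 and Cldn7 on every array of a diet), so no mean is given for that list. Cdh1, the gene of E-cadherin and the one never at that value, averaged 0.16 ± 0.21 in curcumin mice and -0.16 ± 0.22 in control mice (difference 0.32, limma adjusted p = 0.258). Epcam, an epithelial adhesion molecule that held the value on curcumin array 4, averaged 0.22 ± 0.17 in curcumin mice and -0.22 ± 0.27 in control mice (difference 0.44, adjusted p = 0.124), without overlap. These are the 2 with an unadjusted p under 0.05.

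Among 8 genes of mature colonocytes 2 were higher, with array means of 0.43 to 0.78 in curcumin mice and -0.70 to -0.02 in control mice. Without the 4 of these genes that held the shared value on any array (Aqp8, Car1, Krt20 and Guca2a), the means were 0.80 to 1.26 in curcumin mice and -0.86 to -0.27 in control mice, with the same 2 genes called, the transporter gene Slc26a3 and the carbonic anhydrase gene Car4. Of 6 goblet cell genes 0 passed in limma, also at an unadjusted p under 0.05, and 5 of them held the shared value. Of 3 genes of the Paneth list 1 was lower, Mmp7, a matrix metalloproteinase, with -1.32 ± 0.20 in curcumin mice and 1.18 ± 0.92 in control mice (difference -2.50, SE 0.38, adjusted p = 0.0088). The 3 genes disagreed in direction, with Ang4 at 1.10 (limma adjusted p = 0.247) and Lyz1 at -1.05 (adjusted p = 0.0655). Lyz1 held the shared value on every control array. The part of these cell types in the Cd44 and Myc values was not tested.

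**Figure D4:**
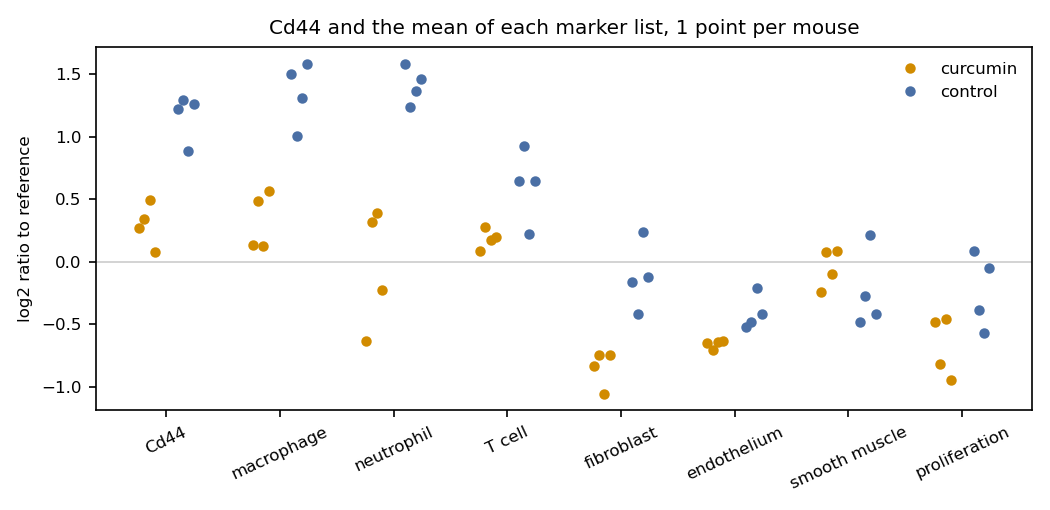
Log2 ratio to the reference (vertical axis) of Cd44 and the mean of each marker list in every mouse, curcumin left and control right, 1 point per mouse. Of what is drawn, Cd44, macrophage, neutrophil, fibroblast and endothelial values separate the diets, while T cell, smooth muscle and proliferation values overlap.

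Around these genes, 14 lists of Wnt, stem cell and neighbouring pathway genes were read from the same fit. Of 164 genes tested 2 were higher and 9 lower in curcumin mice, so 11 or 6.71% passed, against 4.73% of all measurements, with a median difference of -0.05. Of the 11 only Max kept its call in all 19 alternatives run. The other 10 lost it without at least 1 single array, and the 9 lower genes had differences of -0.87 to -0.23 within the shared slide range, where none passed (lowest adjusted p = 0.0972, 2 curcumin and 4 control arrays). With the slide range as a block none of these 9 passed either (lowest adjusted p = 0.0786). Efnb1, the other higher gene, also failed in both fits, and Frzb, Olfm4, Grem1 and Anxa1 lost their calls after quantile normalization.

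None of 13 Wnt ligands tested passed, with 2 at an unadjusted p under 0.05 in limma. The smallest p values were those of Wnt6 (-0.41, SE 0.12, adjusted p = 0.0972) and Wnt10a (-0.28, SE 0.10, adjusted p = 0.15). Among 15 receptors Fzd1, a Frizzled receptor, was lower, with -1.60 ± 0.10 in curcumin mice and -1.16 ± 0.09 in control mice (difference -0.45, SE 0.08, adjusted p = 0.0184). Its call was lost without curcumin mouse 4 or control mouse 4, with an adjusted p of up to 0.0604. Of the 8 R-spondin genes and their receptors and ligases, 0 passed in limma and 2 had an unadjusted p under 0.05. Among these, Rnf43, a Wnt target whose product removes Frizzled receptors from the cell surface, averaged 0.48 ± 0.24 in curcumin mice and 0.92 ± 0.17 in control mice (-0.44, SE 0.13, adjusted p = 0.105), and Znrf3, its close relative, had a difference of -0.21 (adjusted p = 0.126).

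Of 12 secreted Wnt inhibitors 2 were lower, and the median of the list was -0.20. Frzb, a secreted Frizzled-related protein, averaged -1.24 ± 0.11 in curcumin mice and -0.77 ± 0.15 in control mice (difference -0.47, SE 0.10, adjusted p = 0.028). Wif1, which binds Wnt proteins, averaged -0.06 ± 0.09 in curcumin mice and 0.26 ± 0.02 in control mice (difference -0.32, SE 0.07, adjusted p = 0.0343). The Frzb call was lost without mouse 1 or mouse 4 of either diet (adjusted p up to 0.0827), and the Wif1 call in 7 of the 8 fits without 1 array (all but that without curcumin mouse 2, adjusted p up to 0.0951). Inside the cell, 0 of 15 relay genes and 0 of 13 TCF/LEF factors and cofactors passed in limma, with 3 of each at an unadjusted p under 0.05. In the relay list Csnk1e had -0.49 (adjusted p = 0.165) and Dvl1 -0.31 (adjusted p = 0.234). Tcf7l2, the main TCF factor of the gut epithelium, averaged 0.60 ± 0.25 in curcumin mice and 0.13 ± 0.11 in control mice (0.47, SE 0.13, adjusted p = 0.0716), and Lef1 had -0.25 (adjusted p = 0.136).

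Of 17 further Wnt targets only Id2 passed. Id2 encodes a helix-loop-helix inhibitor without a DNA-binding region, and averaged -0.65 ± 0.19 in curcumin mice and -0.06 ± 0.13 in control mice (difference -0.58, SE 0.11, adjusted p = 0.0208). Its 3 probes had differences of -0.86, -0.53 and -0.35, of which only the first passed on its own, and with the median over probes Id2 did not pass (-0.48, adjusted p = 0.188). Its call was also lost without curcumin mouse 1, curcumin mouse 3 or control mouse 4 (adjusted p up to 0.056). Among 14 other stem and progenitor genes 3 were lower. Igfbp4, which binds insulin-like growth factors, averaged -0.29 ± 0.25 in curcumin mice and 0.44 ± 0.13 in control mice (difference -0.73, SE 0.13, adjusted p = 0.0159). Sox4, a transcription factor of progenitor cells, averaged 0.10 ± 0.14 in curcumin mice and 0.61 ± 0.12 in control mice (difference -0.51, SE 0.10, adjusted p = 0.0209). Olfm4, a secreted glycoprotein that marks stem cells in the human intestine, averaged -1.10 ± 0.06 in curcumin mice and -0.77 ± 0.10 in control mice (difference -0.33, SE 0.08, adjusted p = 0.0432). The calls of Igfbp4 and Sox4 were each lost without curcumin mouse 1, that of Igfbp4 also without curcumin mouse 4 (adjusted p up to 0.0533) and that of Sox4 without curcumin mouse 3 (up to 0.0633). For both Igfbp4 and Olfm4, neither of the 2 probes passed on its own. With values required on all 8 arrays Olfm4 did not pass (adjusted p = 0.204). Olfm4 passed in only 1 of the 8 fits without 1 array, that without control mouse 2 (adjusted p up to 0.383 in the others).

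The partners of the Eph receptors and of Myc held both genes that were higher. Efnb1, the ephrin-B1 ligand that EphB receptors recognise, measured 0.316, 0.365, 0.910 and 0.542 in curcumin mice, against -0.666, -0.039, -0.341 and -0.490 in control mice. The diets did not overlap, with a difference of 0.92 (SE 0.16, adjusted p = 0.0167), and the call was lost without mouse 4 of either diet (adjusted p up to 0.0562). It was lost more clearly with the slide range as a block (0.72, adjusted p = 0.109) and on the 6 arrays of the shared range (0.72, adjusted p = 0.132). Efnb1 was the 1 gene of 5 tested partners that passed.

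Max, the obligate partner of Myc in binding DNA, measured 0.583, 0.527, 0.468 and 0.553 in curcumin mice, against -0.026, -0.113, -0.052 and 0.032 in control mice. Both diets had a narrow spread and lay well apart, at 0.53 ± 0.05 in curcumin mice and -0.04 ± 0.06 in control mice (SD, n = 4 each). The difference was 0.57 (SE 0.07, adjusted p = 0.0032), and it remained 0.59 within the shared slide range (adjusted p = 0.0475). Max was the only one of 8 genes of the Myc-Max network to pass.

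In the remaining lists, 0 of 10 Polycomb genes passed in limma, and 0 had an unadjusted p under 0.05, with Cbx2 at -0.24 (adjusted p = 0.447) and Ring1 at 0.13 (adjusted p = 0.481). Of 13 Notch genes 0 passed in limma and 2 had an unadjusted p under 0.05, with Rbpj, the DNA-binding partner of Notch, at -0.45 (adjusted p = 0.112) and Notch2 at -0.19 (adjusted p = 0.265). Of 15 genes of BMP signalling, which opposes the stem cell state, Grem1 passed. Grem1 encodes a BMP inhibitor made by cells beneath the crypts, and measured 0.660, 1.07, 1.02 and 0.674 in curcumin mice, against 1.53, 1.46, 1.98 and 1.96 in control mice. The diets did not overlap (difference -0.88, SE 0.16, adjusted p = 0.0158), and the call was lost without curcumin mouse 1, curcumin mouse 4 or control mouse 4 (adjusted p up to 0.0533). The fibroblast list, which was lower too, is given above, and its part in the Grem1 value was not tested.

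Among the 14 pathway lists the lowest median, -0.62, was that of 6 tested genes of the epithelium under repair. In this list 4 genes had an unadjusted p under 0.05 in limma, and the gene with the largest difference, -1.03, did not pass. Its 1 gene that passed was Anxa1, a phospholipid-binding protein, which averaged 0.78 ± 0.13 in curcumin mice and 1.61 ± 0.35 in control mice (difference -0.83, SE 0.16, adjusted p = 0.0234). This call was lost in 5 of the 8 fits without 1 array, namely those without curcumin mice 1, 3 and 4 and without control mice 1 and 4 (adjusted p up to 0.073). Leukocytes carry Anxa1 as well.

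**Figure D5:**
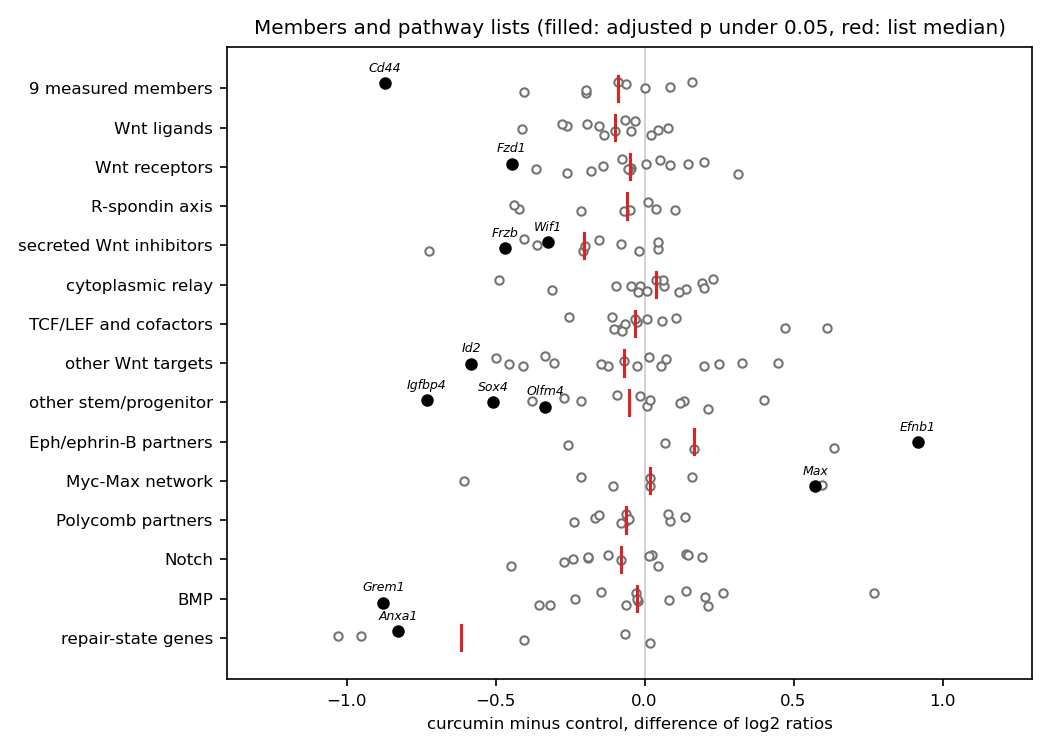
Curcumin minus control difference in log2 ratio (horizontal axis) of each gene of the 9 measured members and the 14 lists (rows), with filled points for an adjusted p under 0.05 and a red bar for the list median. Most genes lie near 0; the named filled points are the 9 genes lower and the 2 genes higher, beside Cd44.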

How the data were processed

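The authors deposited log2 ratios between the 2 channels of each array, which per the submitters' processing notes went through limma; the version and the direction of the ratio are not given in the sources used here. The deposited table has 44290 features and 8 columns, each matched to a mouse by its title. Values were missing for 11.4% to 23.8% of features per array. Features were named from the platform annotation (32042 with 1 symbol, 47 with several, 12201 with none); 31906 were matched by gene ID to the GRCm38.p6 gene table and 0 symbols changed.

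Features with at least 3 values in each diet were kept, those of 1 gene were averaged on each array, and 24030 measurements (17220 named genes) were fitted with limma 3.58.1 in R 4.3.3 (lmFit, eBayes; curcumin minus control, all 8 arrays, no covariate). P values are two-sided and adjusted with the Benjamini-Hochberg method over all measurements, with a threshold of 0.05; probes were fitted likewise over 33957 features. The procedure was tested on simulated data. Errors after ± are SD over 4 mice, which the design text calls biological replicates. Tables and figures were made with Python 3.11.15, pandas 2.3.3 and matplotlib 3.10.9.

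The members and all lists were chosen with earlier results of these data known. Named genes were all members; in each pathway list up to 4 that passed or, where none did, the 2 with the smallest p; Abcb1a and Abcb1b; and the 5 genes nearest to Lgr5. Abcb1b had -0.16 ± 0.15 in curcumin mice and 0.14 ± 0.04 in control mice (limma adjusted p = 0.0926). Intensities are not part of the deposited values, so whether a weak probe stood above background was not examined. On each array 191 to 397 features held 1 shared log ratio; no member probe held it. Marker lists were also read without the genes that held it, a choice made after seeing the data.

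Alternatives were quantile normalization, other filters on missing values, the median over probes, array weights, robust moderation, the shared log ratio set to missing, the slide number range as a block or the shared range alone, the replicate number as a block, and each array left out.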

Additional observations from a re-analysis of the deposited data

Results flagged for a closer look

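Of the 18 groups of 4 mice checked (9 genes in 2 diets), 1 had a mouse far from the others: Axin2 in control mouse 3 stood at -0.318, while the other control mice lay between -0.024 and -0.017. The gap to the nearest of them took nearly the whole range of the group and was past Dixon's 95% critical value. Chance alone marks about 1 in 20 such groups. Curcumin mice 3 and 4 had Axin2 values of -0.298 and -0.486.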

How the results depend on the processing

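Cd44 stayed lower in all 19 alternatives and missed the threshold in 1, the 6 arrays of the shared slide number range (-0.86, limma adjusted p = 0.0517); there 0 of the measured members passed, and 2 had an unadjusted p under 0.05. With the slide range as a block the adjusted p of Cd44 was 0.0451. The count over all measurements, 1137, was 1935 with array weights, 330 with the slide range as a block and 175 within the shared range, and ran from 512 to 1398 without 1 array. Lower pathway genes, 9, were 5 after quantile normalization and 0 with the slide range as a block or within the shared range (18 and 14 at an unadjusted p under 0.05 in limma), and ran from 1 to 10 without 1 array. Higher pathway genes, 2, were 6 with array weights and 1 with either use of the slide range, and ran from 1 to 4 without 1 array. Members lower, 1, were 0 within the shared range and ran from 1 to 2 without 1 array, the second being Myc without control mouse 3. With either use of the slide range Axin2 turned to 0.12, Ephb3 to -0.12 and Sox9 to -0.093; after quantile normalization 1 Ascl2 probe turned to 0.0072 and 1 Sox9 probe to 0.089. Without 1 array, Ascl2 ran from -0.081 to 0.021, Axin2 from -0.16 to 0.012, Ephb3 from -0.052 to 0.20, Sox9 from -0.11 to 0.10 and Myc from -0.56 to -0.33. Smoc2 ran from -0.28 to -0.025, the latter without control mouse 3. The shared range holds fewer samples (2 curcumin mice); the causes of the other shifts were not tested. Averaging probes before the filter, an alternative chosen after seeing the data, gave 1099 calls.

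The replicate numbers showed no clear pairing of the mice. The correlations of same-numbered mice were 0.167, 0.199, -0.0096 and -0.0213, and 1 of the 4 numbers matched its own best. So few pairs cannot exclude a pairing. With the replicate block 743 measurements passed, with 3 lower and 2 higher pathway genes, and Cd44 remained lower (adjusted p = 0.0328).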

Other observations

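Like Lgr5, the 5 genes nearest to it in pattern did not pass the test, which follows largely from how they were chosen. By the root mean square difference over the 8 arrays, after each gene was centred on its own mean, the 5 nearest of 16146 genes were P2rx2 (0.0394), Sez6 (0.0461), Epha6 (0.0467), Ctif (0.0472) and Dpf3 (0.0473), where the median gene lay at 0.196. Their limma adjusted p values ran from 0.235 to 0.668. Among the members themselves the nearest to Lgr5 was Ascl2 at 0.122, the nearest to Cd44 was Myc at 0.259, the nearest to Bmi1 was Axin2 at 0.179 and the nearest to Ephb3 was Sox9 at 0.177.

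Control mouse 3 held the highest Smoc2 value of all 8 mice (0.333) and the lowest control values of Cd44 (0.885), Myc (-0.066) and Axin2 (-0.318). Its Sox9 (0.865) and Ephb3 (0.271) values were the highest among control mice. It also held the highest control means of the fibroblast (0.24), smooth muscle (0.21) and endothelial (-0.21) lists. Its means of the T cell list (0.22), the genes of dividing cells (-0.57) and the colonocyte list (-0.70) were the lowest among control mice. These are values of 1 mouse, and what sets them was not tested.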
